A study of Xenopus tropicalis with 24 samples.

Results

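Distal H3K4me1 peaks of the late blastula that carried neither H3K4me1 nor H3K27ac in the early gastrula were examined in embryos of the frog Xenopus tropicalis. The members were chosen by the deposited peak calls of stage 9 and stage 10.5. They were taken from the untreated stage 9 H3K4me1 list of 25975 peaks, of which 19012 lay more than 1000 bp from the nearest annotated transcription start site (TSS) and were narrower than 10000 bp. Of these distal peaks, 4157 overlapped no H3K4me1 peak and no H3K27ac peak of stage 10.5 by 1 bp or more, and they are called lost here. The share lost was 21.9% (95% Clopper-Pearson interval 21.3 to 22.5). The other 14855 distal peaks are called kept. The word lost describes peak calls, and the stage 10.5 state of these peaks in both marks is not a result.

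The series profiled H3K4me1, H3K4me3, H3K27ac, H3K27me3 and the Nodal effector Smad2/3 by ChIP-seq, and polyadenylated RNA by 3' RNA-seq, at stage 8 (blastula), stage 9 (late blastula) and stage 10.5 (early gastrula). Embryos were wild type and whole. Chromatin came from pools of 250 embryos. Further embryos were raised from the 4-cell stage in SB431542, a kinase inhibitor of the receptors for Nodal, activin and TGF-beta, and their H3K4me1, H3K27ac and RNA were profiled at stage 9 (Nodal-inhibited). Each group held 1 sample, so no difference below has a replicate check and no test was made. Intervals are 95% Clopper-Pearson or order-statistic intervals and cover counting error alone. Neighbouring peaks are not independent.

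H3K4me1, monomethylation of lysine 4 of histone H3, is found over enhancers, and it often precedes their activation. H3K27ac, acetylation of lysine 27, marks the enhancers and promoters in use. In the frog, the zygotic genome becomes broadly active in the blastula, and Nodal signals then induce mesoderm and endoderm, so the interval from stage 9 to stage 10.5 spans the start of germ layer formation.

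Features of the libraries touch these results. Per the labels, the stage 9 H3K4me1 sample was repeated in another pool, while the stage 10.5 sample has no such remark. Per the file headers, the stage 9 H3K4me1 list also carries a longer pool tag than the H3K4me1 lists of stages 8 and 10.5, and the meaning of the tag is not stated. The sources used here do not give ChIP depth. If the tag marks merged runs, the stage 9 list rests on more reads, and then a mark missed at stage 10.5 at lower depth and a mark gone from the embryo cannot be told apart. The stage 10.5 lists were longer, with 35700 H3K4me1 and 23275 H3K27ac peaks covering 92.5 and 97.1 Mb, against 59.0 Mb for the stage 9 H3K4me1 list. Multiplexing adapters and BWA alignment were used for the untreated histone libraries, and Bowtie without such adapters for the inhibited ones, so protocol and treatment cannot be told apart. Peak names of the untreated stage 9 H3K27ac list carry a stage 8 prefix, although the list is deposited under stage 9.

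The lost peaks were weak, narrow and poor in GC. Their median Peak Score, the peak caller's value for each peak (scale not stated), was 9 (quartiles 7 and 13, highest 174), against 23 (quartiles 11 and 48) for kept peaks. The median width was 1220 bp (1189 to 1248) for lost and 1746 bp (1722 to 1770) for kept peaks. The median GC content was 38.4% (38.2 to 38.5) against 41.0% (40.9 to 41.0), and CpG content 0.906% against 1.32%. In all, lost peaks covered 6.27 Mb on 860 scaffolds, and kept peaks 34.3 Mb.

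Peaks were lost from every quintile of the score (the plot of shares by Peak Score). The share lost was 44.4% (42.8 to 45.9) in the quintile of lowest score and 35.2%, 19.5% and 6.42% in the following ones. In the highest quintile 37 of 3690 peaks were lost, or 1.003% (0.707 to 1.38). Lost peaks were poorer in GC within each score quintile, with medians from 38.1% to 41.0% against 39.5% to 42.5% for kept peaks. By GC quintile, the share lost fell from 37.8% (36.3 to 39.4) at the lowest GC content to 10.1% (9.18 to 11.1) at the highest. Kept peaks that carried H3K27ac alone at stage 10.5, 428 in number, had the low median score of 9 too, with a GC content of 39.4%. Their median width, 1228.5 bp (1123 to 1391), was also near that of lost peaks. Kept peaks with H3K4me1 alone had a median width of 1470 bp and a median score of 20.

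**Figure D1:**
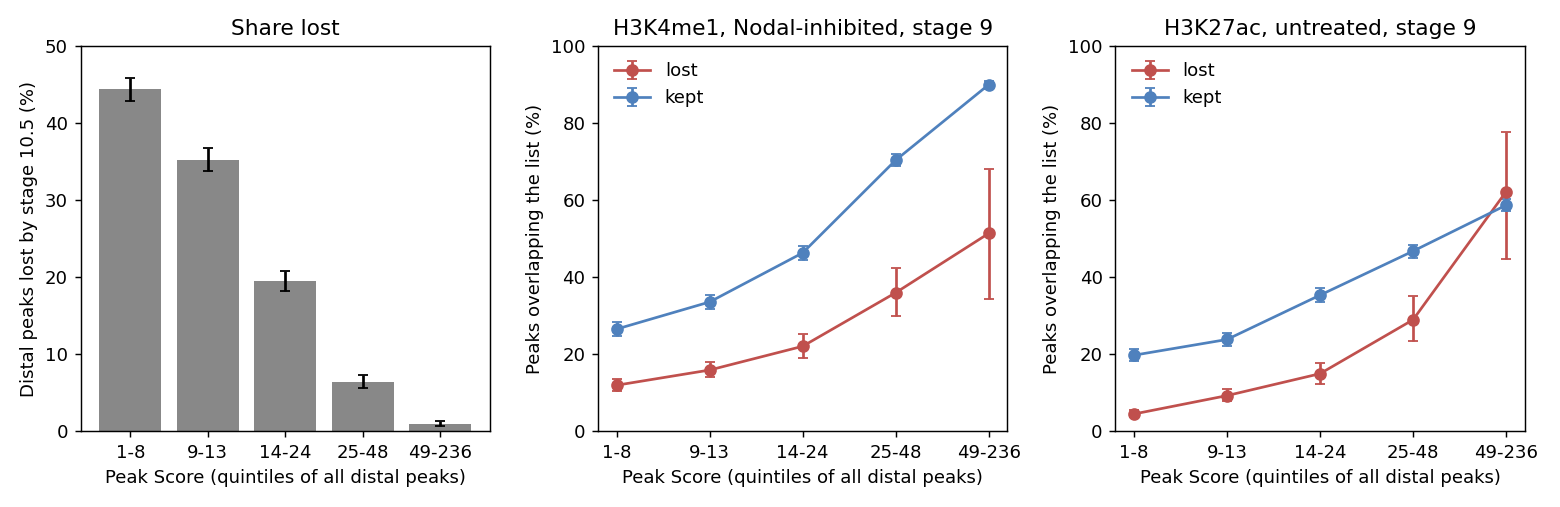
Share of distal stage 9 H3K4me1 peaks lost by stage 10.5 (left, bars), and share overlapping the Nodal-inhibited H3K4me1 list (middle) and the untreated stage 9 H3K27ac list (right), by quintiles of Peak Score. Points are lost (red) and kept (blue) peaks and bars of error are 95% Clopper-Pearson intervals; lost peaks lie below kept peaks in all quintiles of the middle panel and in the lower 4 quintiles of the right one.

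Lost peaks lay farther from annotated genes than kept peaks. The median distance to the nearest TSS was 82.1 kb (77.6 to 86.5), against 42.5 kb (41.3 to 43.5) for kept peaks. Of the lost peaks, 1857 (44.7%, 43.2 to 46.2) lay beyond 100 kb and 1509 (36.3%, 34.8 to 37.8) within 50 kb, while 27.01% and 54.4% of kept peaks did. The share lost rose with distance, from 10.2% (8.82 to 11.8) between 1 and 5 kb to 35.8% (34.0 to 37.5) beyond 200 kb. The longer distance was seen in each score quintile, where lost peaks had medians from 79.2 to 111 kb and kept peaks from 37.6 to 47.3 kb. The annotation class did not separate the groups: 79.4% of lost and 79.7% of kept peaks were intergenic, 18.4% of each were intronic, and 36 lost peaks (0.866%) lay in exons.

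Annotated repeats were found at the centre of 612 lost peaks (14.7%, 13.7 to 15.8) and of 8.23% of kept peaks. The most frequent was the repeat named OCR, at 199 lost peaks (4.79%, 4.16 to 5.48) and 135 kept peaks (0.909%, 0.762 to 1.07). Of the 334 distal OCR peaks 59.6% (54.1 to 64.9) were lost, against 21.2% (20.6 to 21.8) of the others. The share was higher for OCR peaks in each score quintile, at 77.2% against 43.6% in the lowest and 32.8% against 6.01% in the next to highest, and in the highest quintile 2 of 14 OCR peaks were lost. OCR stood at 1.36% of all stage 9 H3K4me1 peaks, at 0.409% of those of stage 10.5, at 0.227% of those under inhibition and at none of the 5874 of stage 8. In stage 9 H3K27ac it stood at 0.758% of the inhibited peaks and 0.327% of the untreated ones. Lost OCR peaks had more CpG than the other lost peaks, with medians of 1.63% and 0.879%, and 13 of 199 (6.53%) were called again in inhibited H3K4me1. Inhibited H3K27ac was called at 40 lost OCR peaks (20.1%) and at 58.5% of kept OCR peaks. The sources used here do not say how reads from repeated sequence were placed, and its part in these shares was not tested. Among rarer repeats, 24 of 42 Chap4b_Xt peaks and 20 of 48 T2_1_Xt peaks were lost. Nearer the 21.9% of all distal peaks stood POR (27 of 109), JH12_XL (20 of 69) and DNA4_Xt (17 of 64). Over all repeats other than OCR the share lost was 27.5% (25.3 to 29.9).

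**Figure D2:**
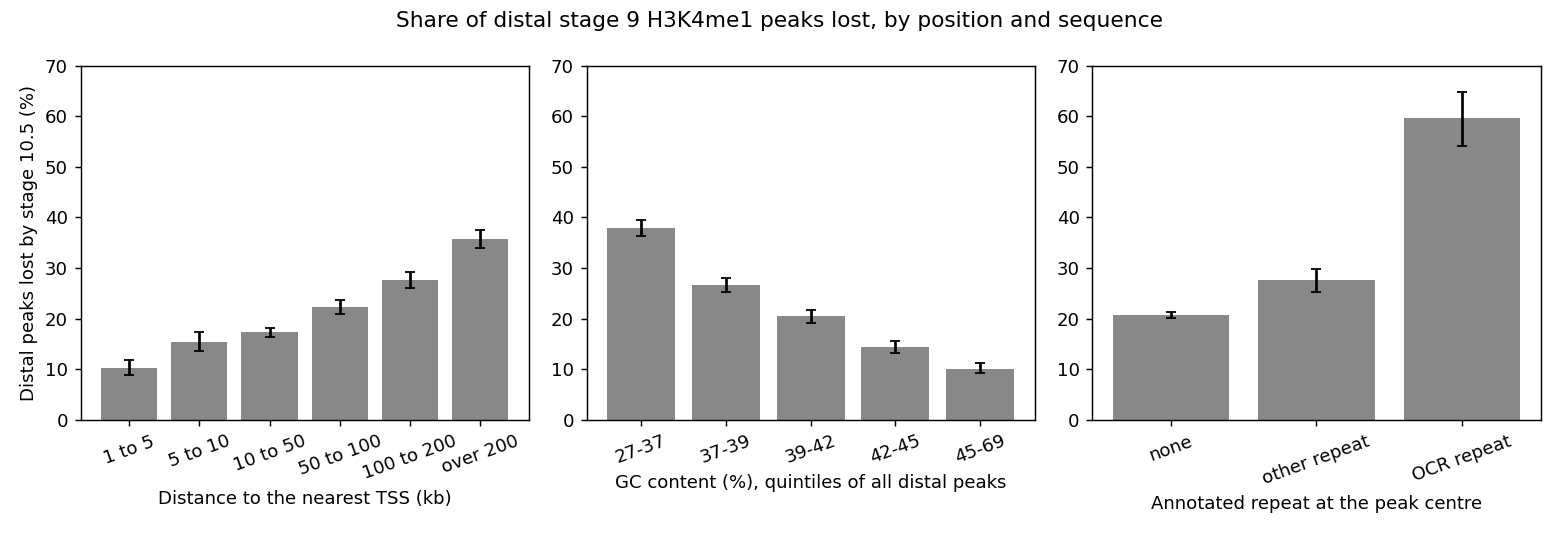
Percent of distal stage 9 H3K4me1 peaks lost by stage 10.5, by distance to the nearest TSS in kb (left), by quintiles of GC content in percent (middle) and by the annotated repeat at the peak centre (right). Error bars are 95% Clopper-Pearson intervals; the share runs from 10.2% to 35.8% with distance, from 37.8% to 10.1% with GC content, and stands at 59.6% for OCR repeats.

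By definition no lost peak overlapped a stage 10.5 peak of either mark. No background of gaps from other positions was computed, so the gaps that follow are a description. The gap from a lost peak to the nearest stage 10.5 peak of either mark had a median of 17.2 kb (quartiles 5.86 and 44.2 kb). It was at most 1 kb for 78 peaks (1.88%) and above 50 kb for 892 (21.5%), and 18 lost peaks were on scaffolds with no stage 10.5 peak of either mark. Counting the distal peaks in order along the scaffolds, 2132 lost peaks (51.3%, 49.8 to 52.8) had another lost peak as a direct neighbour. Of the kept peaks 4538 (30.5%, 29.8 to 31.3) had one, and of all distal peaks 6670 (35.1%, 34.4 to 35.8). These shares were not split by score or TSS distance, with which the share lost varied. There were 110 runs of 4 or more lost peaks. The longest run held 12 lost peaks over 454 kb of scaffold 187 (xenTro2, 1167112 to 1620672) near negr1, a neuronal cell adhesion gene, tnni3k and zranb2. It was made of weak peaks, with a median score of 8.5, and 2 of the 12 were called again in inhibited H3K4me1. The next run held 10 lost peaks over 528 kb of scaffold 183, near ap2a2. Runs of 9 lay near LOC100124962 and brd1 on scaffold 20, and near asmtl and pdk3 on scaffold 64. A further run of 9 spread over 832 kb of scaffold 46 (1741259 to 2573215) near basp1, which encodes a membrane protein of neurons. Another run of 9, within 128 kb of scaffold 472 (153147 to 281495), surrounded the protocadherin gene pcdh7, and 5 of its peaks were called again under inhibition.

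The edges of the definition were as follows. The lost peak closest to a TSS was 1003 bp away, near pde5a, with a score of 6, and the farthest unmarked peak on the promoter side was 949 bp away, near pc.2, with a score of 5. Within 1000 bp of a TSS 51 of 4635 peaks overlapped neither stage 10.5 mark. The widest lost peak spanned 8590 bp near gad1.2, and 1 unmarked distal peak was 10000 bp wide or wider. The smallest gap of a lost peak to a stage 10.5 peak was 40 bp, near inf2, and the smallest overlap of a kept peak was 1 bp, near aacs. Of the kept peaks 835 had less than 50% of their length covered. A further 592 peaks without overlap at stage 10.5 were among the 1976 with no annotated TSS distance, and were left out.

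Most lost peaks were seen in H3K4me1 at untreated stage 9 alone. The stage 10.5 H3K4me1 and H3K27ac lists, which defined the groups, are left out of the shares that follow for both groups. Of the 4157 lost peaks, 3452 (83.0%, 81.9 to 84.2) were in neither remaining H3K4me1 list, stage 8 or inhibited, and 40.3% of kept peaks were in neither. No peak of any remaining list overlapped 2506 lost peaks (60.3%, 58.8 to 61.8) and 14.9% of kept peaks. At stage 8, H3K4me1 was called at 16 lost peaks (0.385%), where 13.4% of all distal peaks and 17.1% of kept ones overlapped that list. This gap varied with score: lost and kept peaks stood at 0.218% and 1.13% in the lowest score quintile. In the highest they stood at 2.70% and 47.9%. Under Nodal inhibition 693 lost peaks (16.7%, 15.5 to 17.8) were called again in H3K4me1, with a background of 48.6% over all distal peaks and 57.6% (56.8 to 58.4) in kept peaks. The share in inhibited H3K4me1 lay below that of kept peaks in each score quintile. It was 11.9% against 26.5% in the lowest score quintile, 22.1% against 46.3% in the middle one, and 51.4% (34.4 to 68.1) against 89.95% (88.9 to 90.9) in the highest.

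The 693 lost peaks that were called again under inhibition were wider than the remaining 3464, with a median of 1984 bp against 1128 bp, while their GC content of 38.2% and distance of 84.2 kb stood near the 38.4% and 81.8 kb of the others. They also carried more acetylation. H3K27ac was called in inhibited embryos at 339 of them (48.9%, 45.1 to 52.7), against 13.5% of the others, and in untreated stage 9 embryos at 142 (20.5%), against 7.56%. Their median score was 11 (quartiles 8 and 18), against 9 (6 and 13). Kept peaks had the same order. Untreated stage 9 H3K27ac was called at 53.7% of those in inhibited H3K4me1 and at 20.2% of those not in it.

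H3K27ac was rare on lost peaks before gastrulation. At stage 9 it was called at 404 lost peaks (9.72%, 8.83 to 10.7), with a background of 32.9% over all distal peaks and 39.4% in kept peaks. At stage 8 it was called at 467 (11.2%, 10.3 to 12.2), against a background of 22.9% and 26.2% in kept peaks. Both stages had H3K27ac at 196 lost peaks, stage 8 alone at 271 and stage 9 alone at 208. Within score quintiles the stage 8 shares of lost and kept peaks were close in the lower 4 quintiles (5.94% and 7.74%, 10.4% and 10.1%, 15.4% and 19.1%, 33.9% and 31.2%). In the highest quintile 28 of the 37 lost peaks (75.7%, 58.8 to 88.2) carried stage 8 H3K27ac, and 49.5% of kept peaks did. The stage 9 shares were lower in lost peaks in the lower 4 quintiles, at 4.47% against 19.7% in the lowest. They were 62.2% (44.8 to 77.5) against 58.7% in the highest.

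In inhibited embryos H3K27ac was called at 805 lost peaks (19.4%, 18.2 to 20.6), with a background of 49.8% and 58.3% in kept peaks. Kept peaks with H3K27ac alone in the early gastrula had a share near that of lost peaks, at 20.6% (16.8 to 24.7). Kept peaks with H3K4me1 alone stood at 52.2% and those with both marks at 63.1%. The low share is thus not particular to lost peaks. The acetylated lost peaks of the treated and untreated stage 9 lists were mostly different ones: 101 were in both, 704 in the inhibited list alone and 303 in the untreated list alone. Of the 404 acetylated lost peaks of untreated embryos 25% (20.9 to 29.5) were acetylated under inhibition, and 70.02% (68.8 to 71.2) of the 5860 acetylated kept peaks were. Over all lost and all kept peaks, acetylated or not, the shares under inhibition were the 19.4% and 58.3% given above. The comparison of acetylated peaks was not split by score or by class of kept peak. The inhibited H3K27ac list holds 16105 peaks and the untreated one 11314.

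**Figure D3:**
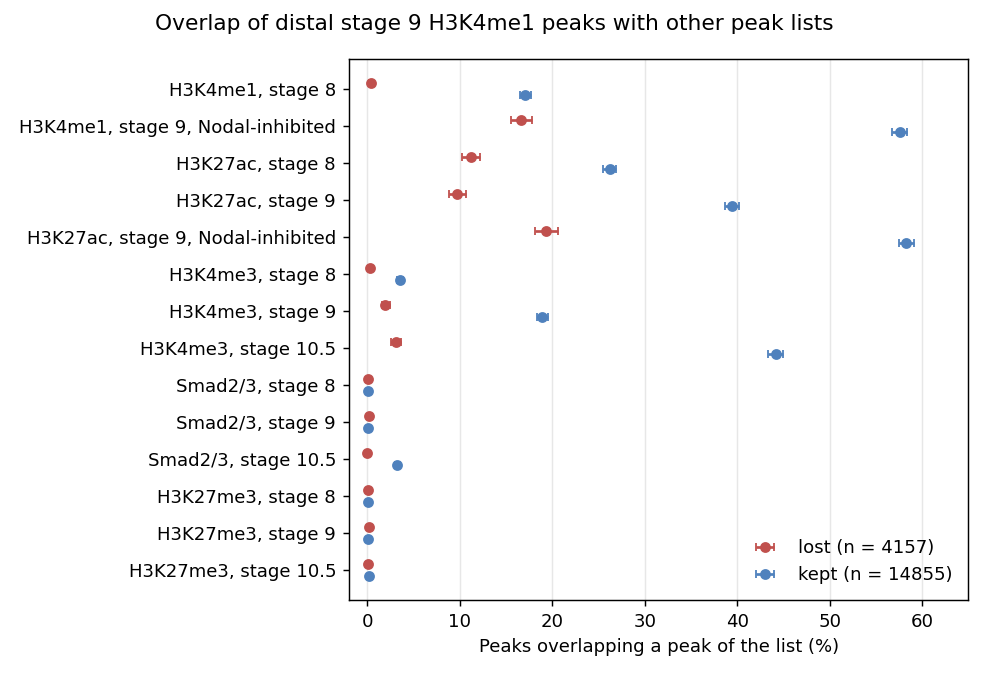
Percent of 4157 lost (red) and 14855 kept (blue) distal stage 9 H3K4me1 peaks that overlap a peak of each other list; bars are 95% Clopper-Pearson intervals. The stage 10.5 H3K4me1 and H3K27ac lists defined the groups and are not shown; the kept share is the higher one for the H3K4me1, H3K27ac and H3K4me3 lists, at 57.6% against 16.7% for Nodal-inhibited H3K4me1.

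H3K4me3, the mark of active promoters, was called at a smaller share of lost peaks than of all distal peaks at each stage. It was called at 13 lost peaks (0.313%) at stage 8, with a background of 2.82%, and at 82 (1.97%) at stage 9, with a background of 15.2%. The stage 9 shares of lost and kept peaks were close in the lower 2 score quintiles (1.74% and 1.39%, 1.42% and 2.07%). They were 16.2% and 47.0% in the highest. At stage 10.5 H3K4me3 was called at 129 lost peaks (3.103%, 2.60 to 3.68), where the background was 35.2% and kept peaks reached 44.2%. In the lowest score quintile the stage 10.5 shares of lost and kept peaks were 1.53% and 10.3%, and in the highest 37.8% (22.5 to 55.2) and 84.5%. The 129 peaks were richer in GC than the lost peaks as a whole, at a median of 43.2%. Smad2/3, the transcription factors that carry the Nodal signal into the nucleus, overlapped 1 lost peak (0.0241%) at stage 10.5, where the background was 2.53% and 480 kept peaks (3.23%) were overlapped. Of these kept peaks 467 carried both H3K4me1 and H3K27ac at stage 10.5 (4.87% of such peaks). Kept peaks with H3K4me1 alone had few, at 12 (0.248%), as did those with H3K27ac alone, at 1 (0.234%). A low share is thus not particular to lost peaks. The Smad2/3 lists of the earlier stages touched few distal peaks of any kind. They overlapped 5 lost peaks (0.120%) at stage 8 and 6 (0.144%) at stage 9, with backgrounds of 0.0789% and 0.126%, so lost peaks did not stand below the background there. The 1 lost peak with Smad2/3 at stage 10.5 lay 46.8 kb upstream of pdlim4, a gene for a cytoskeletal PDZ and LIM domain protein, had a score of 5 and carried H3K27me3 at all 3 stages. It also carried Smad2/3 and H3K27ac at stage 8 and H3K4me3 at stage 9. H3K27me3, the mark of Polycomb repression, had short lists of 75, 81 and 179 peaks at stages 8, 9 and 10.5. They overlapped 2, 8 and 5 lost peaks (0.0481%, 0.192% and 0.120%). The backgrounds were 0.0421%, 0.0947% and 0.174%, near these shares at such low counts. One of the lost peaks with H3K27me3, 80.8 kb from sfrp2, a gene for a secreted Wnt inhibitor, and with a score of 30, also carried H3K4me1 and H3K27ac in inhibited embryos and H3K27ac at stage 9.

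The highest scores belonged to a few peaks, most of them far from any annotated TSS. The first, with a score of 174, spanned 4048 bp of scaffold 166 (xenTro2, 2029889 to 2033936), 327 kb upstream of tmem229b, a transmembrane protein gene. It carried H3K4me1 at stage 8 and H3K27ac at stage 8, at stage 9 and under inhibition, but was not called in inhibited H3K4me1, and the nearest stage 10.5 peak was 5.31 kb away. A second lost peak of the same surroundings (2004587 to 2008436) had a score of 66, H3K27ac at stages 8 and 9 and H3K4me3 at stage 9. The peak next in score, 72, lay in the first intron of stat2, a transcription factor of interferon signalling (scaffold 101, 1319449 to 1321365). It was in both inhibited lists, had H3K27ac at stages 8 and 9 and carried H3K4me3 at stage 10.5 and not before, so H3K4me3 was the mark called there in the gastrula. A peak of the same score lay 348 kb upstream of scnn1b, a subunit of the epithelial sodium channel, with H3K27ac in inhibited embryos alone. The peak of score 71, on a GA-rich repeat, lay 23.4 kb upstream of mrpl14, a mitochondrial ribosomal protein gene, and was in both inhibited lists. The next were near LOC100145478 (66), the repair gene ercc6 (65), cbln1 (64), oaz1 (64), ropn1l (64), LOC100335112, annotated as a somatic 5S ribosomal RNA gene (63), and svip (61). Like the stat2 peak, those near LOC100145478, ercc6, ropn1l and LOC100335112 carried H3K4me3 at stage 10.5. A further peak of score 61, near rbm25 (scaffold 246, 274203 to 276449), tied with that of svip and was left out of the 12 by the order of scaffold names sorted as text. It was in both inhibited lists and had no H3K27ac at stage 9. Of the 12 peaks of highest score 10 were intergenic, 9 lay more than 50 kb from a TSS and 9 carried H3K27ac at stage 9.

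RNA was read for the genes nearest to lost peaks within 50 kb of the TSS. These were 1244 genes, of which 1037 had 1 lost peak, 162 had 2 and 35 had 3, and 752 had kept peaks as well. The RNA table had a label for 726 of them (58.4%, 55.6 to 61.1). For genes with lost and no kept peak this was 52.4% of 492, and for genes with kept and no lost peak 63.4% of 3849. Library depths ran from 6703399 to 11395054 tags. Levels are in CPM, tags scaled to the total assigned to named genes, and are not scaled to length. Whole embryos were measured, so fewer cells of a type and less RNA per cell cannot be told apart. Not every marker gene of the germ layers separated the stages. The mesoderm gene t (Brachyury) had 0, 1 and 1869 tags at stages 8, 9 and 10.5 and 0 under inhibition. In that order the endoderm gene sox17a had 1, 5, 386 and 0 tags, and the ectoderm gene tfap2a 0, 4, 1148 and 11. The ectoderm gene sox3 was high in every library, with 8979, 4782, 10598 and 4625 tags.

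Between stage 9 and stage 10.5 the shares of changed genes near lost peaks were close to those over all labels. Of 594 genes that reached 10 CPM in either library, 175 (29.5%, 25.8 to 33.3) were at least 2-fold higher at stage 10.5, with a background of 29% over 5045 labels, and 97 (16.3%, 13.4 to 19.6) were at least 2-fold lower, with a background of 17.2%. The median log2 ratio, with a pseudocount of 1 CPM, was 0.38, against 0.29 over all labels. That overall shift depends on the scaling: with TMM it was 0.00, and the split near lost peaks became 23.2% higher and 20.4% lower (all labels 22.2% and 22.3%). With median-of-ratios factors it was -0.02, and the split was 22.04% and 21.2% (all labels 21.5% and 23.1%). Genes with lost and no kept peak gave 24.2% (18.6 to 30.5) higher and 19.1% (14.0 to 24.97) lower of 215, with a median log2 ratio of 0.13, and genes with kept and no lost peak gave 31.9% (29.9 to 33.9) and 15.3% (13.7 to 16.9) of 2076, with 0.41. The intervals of these shares overlap.

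In the other RNA comparisons the genes near lost peaks gave shares near the background too. From stage 8 to stage 9, 8.52% (6.39 to 11.1) of 587 rose at least 2-fold, with a background of 7.29%, and 31.5% (27.8 to 35.4) fell, with a background of 28.8%. Under inhibition, compared with untreated stage 9, 23.6% (20.1 to 27.3) of 573 were higher, with a background of 20.5%, and 15.4% (12.5 to 18.6) were lower, with a background of 16.7%. Of the genes with lost and no kept peak, 10.9% (7.04 to 15.9) of 211 were lower under inhibition, below that background, and 22.7% (17.3 to 29.0) were higher. From stage 8 to stage 9, 6.91% of 217 such genes rose and 31.3% fell. The comparisons with stage 8 and with inhibited embryos share the untreated stage 9 library.

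Of the 6 genes with the largest rises near lost peaks, cer1, otx2 and chrd are on the organizer list (cer1 on the Nodal list as well), frzb on the endoderm list, hoxd1 on the Hox list and gs17 on none (the map of transcript levels). Tags are given in the order stage 8, stage 9, stage 10.5 and inhibited stage 9. The gene cer1, which encodes Cerberus, a secreted antagonist of Nodal, BMP and Wnt signals, had 0, 0, 1637 and 0 tags, at least 453-fold higher at stage 10.5 than at stage 9 with 3 tags put in place of 0. Its lost peak, 46.8 kb upstream, had a score of 4, and no distal peak nearest to cer1 was kept. The Wnt antagonist gene frzb had 0, 0, 703 and 0 tags, at least 194-fold higher. The head homeobox gene otx2 had 0, 1, 680 and 0 tags, a ratio of 564 with an interval of 101 to 22306 that rests on 1 tag. The BMP antagonist gene chrd (Chordin) had 0, 3, 472 and 6, a ratio of 130.5 (44.4 to 635). The gene gs17 had 1, 103, 9367 and 1384 tags, which was 75.4-fold (62.1 to 92.5) higher at stage 10.5, and hoxd1 had 5, 3, 745 and 20, a ratio of 206 (70.2 to 1001). All 6 were near 0 at stage 8, and 4 of them had at most 6 tags in the inhibited library. These 4, cer1, frzb, otx2 and chrd, had 0, 0, 1 and 3 tags in untreated stage 9 embryos too. The choice of the largest rises favours genes low in that library, so their low inhibited values are not a separate result. Besides their 1 lost peak, frzb and hoxd1 had 1 kept peak within 50 kb, gs17 and chrd 2 and otx2 3. The lost peaks of frzb, otx2, gs17 and hoxd1 had scores of 9, 9, 7 and 8. They lay 41.8, 35.7, 46.2 and 13.5 kb from the TSS. The marker genes t, sox17a and tfap2a also rose by stage 10.5, and had 0 lost and 4, 1 and 3 kept peaks within 50 kb.

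The lost peak of chrd (scaffold 132, 796712 to 799268, 47.0 kb from the TSS, score 17) was called in both inhibited lists and in H3K27ac of stages 8 and 9. That of hoxd1 was called in inhibited H3K4me1 alone, and those of cer1, frzb and otx2 in none of these lists.

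The largest falls had other roles. The gene hpca, which encodes a neuronal calcium sensor, had 86, 612, 30 and 50 tags and was 24.6-fold (17.1 to 36.8) lower at stage 10.5 than at stage 9, and an OCR repeat lay at its lost peak. The sorting nexin gene snx11 had 227, 801, 62 and 375 tags, 15.6-fold (12.02 to 20.5) lower. The gene c17orf108 had 271, 2225, 210 and 263 tags, 12.8-fold (11.1 to 14.8) lower. The ubiquitin ligase gene rnf138 had 1406, 2344, 276 and 596 tags, 10.2-fold (9.04 to 11.6) lower, with a lost peak of score 32 at 2.85 kb upstream. The gene kif2c, a kinesin that takes microtubules apart in mitosis, had 3633, 3837, 505 and 654 tags, 9.16-fold (8.35 to 10.1) lower, and its lost peak of score 28 lay in the fourth intron. The ciliary gene armc4 had 1, 88, 1 and 24 tags, 106-fold (18.6 to 4238) lower at stage 10.5 than at stage 9, and 4 lost peaks lined up 23.5 to 39.0 kb upstream of it. These 6 genes were also lower under inhibition than in untreated stage 9 embryos. The choice of the largest falls favours genes high in the untreated stage 9 library, and both ratios share that library. The lower values under inhibition are therefore not a separate result. The genes hpca, snx11, rnf138 and kif2c had no kept peak within 50 kb.

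**Figure D4:**
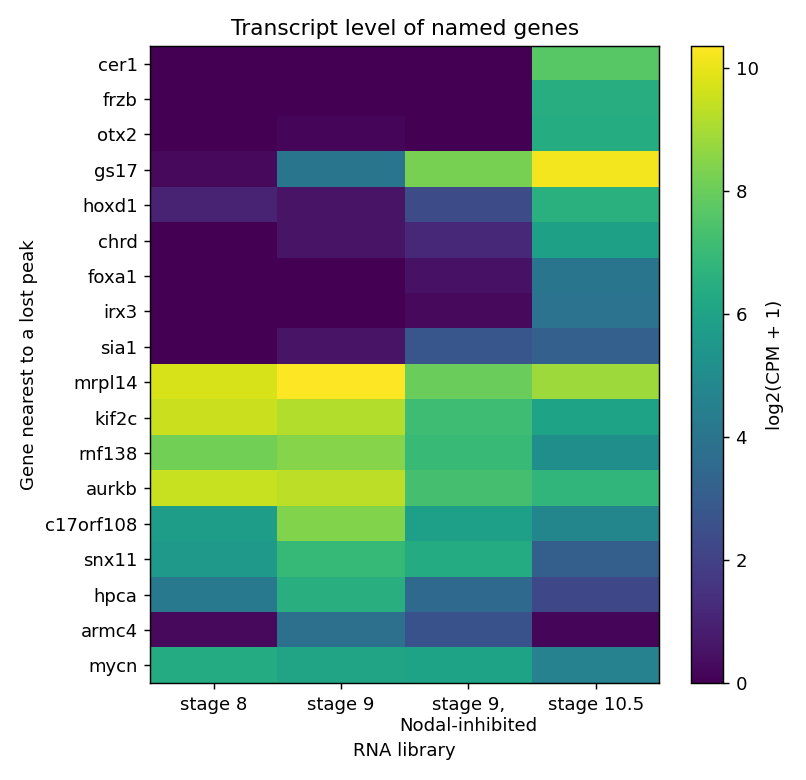
Transcript level, as log2(CPM + 1), of 18 genes nearest to a lost peak in the 4 RNA libraries, each 1 sample. The genes cer1, frzb, otx2 and chrd are near 0 before stage 10.5 (cer1 reaches 1637 tags at stage 10.5 and has 0 in the other libraries), and kif2c, rnf138 and aurkb are high at stages 8 and 9.

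The genes with the most lost peaks were spread over many roles. Within 50 kb 5 lost peaks each belonged to znf33a, a zinc finger gene, to polr3e, a subunit of RNA polymerase III, and to qtrt1, an enzyme that modifies tRNA. The 4 libraries held 380, 300, 419 and 265 tags of polr3e and 844, 920, 1959 and 942 of qtrt1. The annotation places qtrt1 in separate parts of scaffold 845 and myo15a (4 lost peaks) on scaffolds 14 and 274, so their counts join more than 1 locus. The others with 4 were zcchc14, raver2, LOC100145105, anapc13.1, dus4l and armc4. Of these, dus4l, another tRNA-modifying enzyme, had 187, 860, 2635 and 876 tags, 2.54-fold (2.35 to 2.75) higher at stage 10.5 than at stage 9.

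Near listed genes, developmental or not, a smaller share of distal peaks was lost than the 15.7% of all 9591 distal peaks within 50 kb of a TSS. Of the 335 near the genes of the developmental lists (231 genes in the lists for germ layers, organizer, signalling pathways, pluripotency and Hox genes) 27 were lost, or 8.06% (5.38 to 11.51). Over all 367 listed genes it was 35 of 444 (7.88%, 5.55 to 10.8), and near genes in no list 16.1% (15.4 to 16.9) of 9147. Outside the developmental lists, chromatin modifiers lost 0 of 25, housekeeping genes 1 of 20 and genes of later cell types 0 of 12. Cell cycle genes lost 4 of 32, and maternal and germ plasm genes 4 of 26. The low share is thus not particular to developmental genes. Median scores were 18 near the developmental lists and 19 near unlisted genes. In the lower 2 score quintiles 18.4% (12.04 to 26.3) of peaks near the developmental lists and 32.6% (31.0 to 34.2) near unlisted genes were lost. In the upper 2 quintiles it was 0 of 140, with an upper limit of 2.60%, and 2.23% (1.80 to 2.74). The lists were chosen with results of these data known, and no test was made of them.

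The lists differed among themselves within wide intervals. For BMP and ventral genes 0 of 26 peaks were lost, with an upper limit of 13.2%, for chromatin modifiers 0 of 25, with an upper limit of 13.7%, for ectoderm and neural genes 2 of 65 (3.08%, 0.375 to 10.7), and for Wnt and FGF pathway genes 3 of 62. For mesoderm genes it was 3 of 51. At the other end stood Nodal ligands and feedback genes with 6 of 30 (20.0%, 7.71 to 38.6) and organizer genes with 6 of 31 (19.4%, 7.45 to 37.5), above the background of 15.7% by less than their counting error. Endoderm genes lost 4 of 29, maternal and germ plasm genes 4 of 26, cell cycle genes 4 of 32 and pluripotency genes 3 of 34. Hox genes lost 1 of 14, housekeeping genes 1 of 20 and genes of later cell types 0 of 12.

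**Figure D5:**
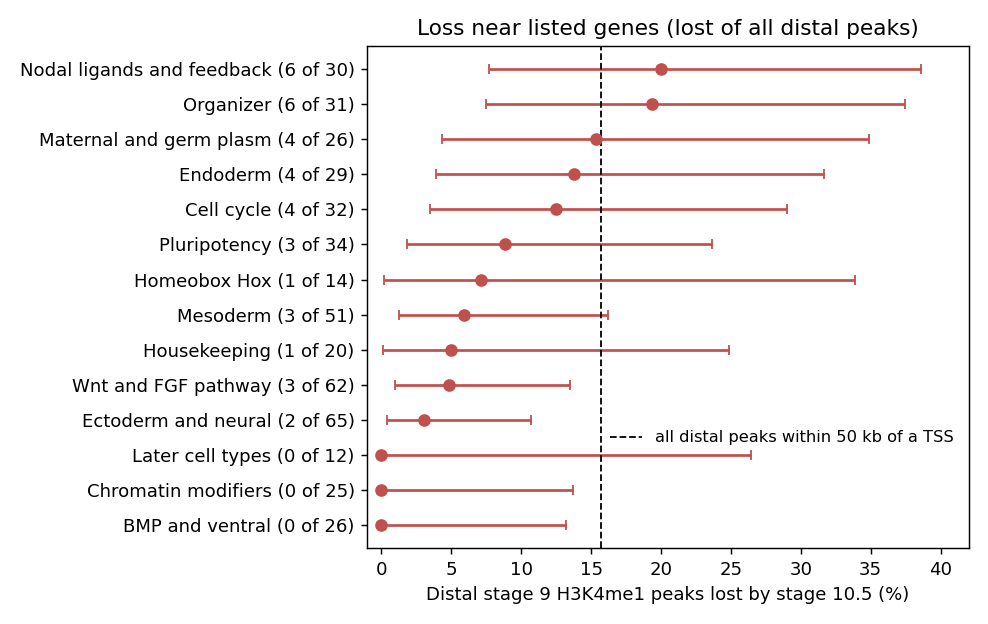
Percent of distal stage 9 H3K4me1 peaks within 50 kb of the TSS of listed genes that were lost by stage 10.5, for 14 gene lists, with the counts in the labels and 95% Clopper-Pearson intervals. The dashed line is the 15.7% over all 9591 distal peaks within 50 kb of a TSS; Nodal and organizer lists lie right of it at 20.0% and 19.4%, and no peak was lost for 3 lists.

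Among the listed genes, 5 had more than 1 lost peak. Of the 3 lost peaks of acvr1b, the type I receptor of Nodal and activin and a target of SB431542, 2 lay 8.99 and 6.17 kb upstream and 1 in its second intron (scores 5, 10 and 11), and none was in the inhibited or H3K27ac lists. Its RNA was low, at 41, 61, 52 and 54 tags. The endoderm gene foxa1, a forkhead factor that opens chromatin, lost 3 of 4 peaks, 40.0 kb upstream and 21.2 and 48.9 kb downstream, and had 0, 0, 122 and 2 tags. The homeobox gene sia1 (Siamois), a target of maternal Wnt signalling, lost all 3 of its distal peaks, 13.0 to 27.3 kb downstream with scores from 4 to 7, and had 0, 3, 65 and 27 tags. The neural crest gene snai2 and the pluripotency gene klf4 lost 2 of 4 each. Neither had an RNA label of its own.

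Single lost peaks lay near further regulators. The ligand gene nodal lost 1 of 2, 4.39 kb upstream, with H3K27ac at stage 8. The neural homeobox gene irx3, with 0, 0, 115 and 1 tags, lost 1 of 7. The Wnt receptor gene fzd2 had 17, 9, 169 and 17 tags. Of the maternal genes zar1 and trim36, the lost peaks were both in the inhibited H3K4me1 and H3K27ac lists, and zar1 had 707, 456, 605 and 273 tags. Among cell cycle genes, the lost peak of aurkb, a mitotic kinase gene with 3556, 4262, 906 and 738 tags, lay in an intron and carried H3K27ac at stage 9, while ccna2 (Cyclin A) had 1631, 1293, 4074 and 2457 tags. The proto-oncogene mycn had 404, 435, 185 and 293 tags and was 2.84-fold (2.38 to 3.39) lower at stage 10.5 than at stage 9. Across these genes a lost peak stood beside higher, lower and little changed RNA.

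RNA regions rarely fell inside the lost peaks themselves. A called RNA region overlapped 70 of them (1.68%, 1.31 to 2.12), against 778 kept peaks (5.24%, 4.88 to 5.61). The 55 regions in lost peaks that name no gene held 417, 328, 441 and 502 CPM of all tags, in the library order given above.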

How the data were processed

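The deposited files were used as they are. The submitters' processing notes name BWA or Bowtie for alignment, MACS2 for peaks and HOMER for their annotation; the sources used here give no versions or thresholds. The Peak Score is deposited by the authors, scale not stated, and was used within 1 list. GC and CpG content are deposited as a fraction of bases and were turned into percent. Peaks were annotated on xenTro2 per the file headers, with TSS distance and nearest gene as deposited. Positions were read as 1-based.

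RNA tag counts per called region are deposited raw. Of 46039 regions 20406 name no gene and held 29.1% to 32.6% of the tags; they were left out of gene comparisons. Tags were summed over 5944 labels, of which 482 name several genes, and scaled to named tags (CPM). Per-sample columns that match no listed sample, 4 in number, were not used. Ratios used genes that reached 10 CPM in either library, a pseudocount of 1 CPM and a 2-fold threshold. Folds are ratios of scaled counts with conditional binomial intervals. Where a library held 0 tags, 3 tags per library took its place.

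An overlap is at least 1 bp. A gene belongs to a peak where it is named as nearest within 50 kb. Named genes are those nearest to the 12 lost peaks of highest score, the 10 with most lost peaks, the 6 largest rises and 6 largest falls, and list members with a lost peak, not all of which are reported here; sfrp2, pdlim4, the staging genes, rbm25, the run genes and the edge genes were named after their values were seen. The members and the 14 lists were chosen with earlier results of these data known. Alternatives changed the overlap rule, score limits, distance, scaffolds, scaling, filter and gene assignment. Overlap and fold steps were tested on simulated data. Python 3.11.15, pandas 2.3.3, numpy 2.4.6, scipy 1.17.1, matplotlib 3.10.9 and R 4.3.3 were used, with edgeR 4.0.16 and DESeq2 1.42.0 for scaling factors alone. Intervals cover counting error alone.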

Additional observations from a re-analysis of the deposited data

How the results depend on the processing

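No paired analysis was possible because each group holds 1 sample. Of 78 recomputed values 48 stayed within the counting interval of the reported value and 30 did not; no peak setting changed the order of lost and kept peaks in inhibited H3K4me1, stage 9 H3K27ac, GC content or TSS distance.

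The share lost was 26.4% when 50% of a peak had to be covered, 4.07% for stage 9 peaks at or above the median score, 41.8% against stage 10.5 peaks at or above theirs, 23.0% beyond 5000 bp from a TSS, 24.1% for H3K4me1 of stage 10.5 alone, and 21.2% without OCR repeats, an alternative added after seeing the data. It thus rests on the score limits. In inhibited H3K4me1, lost peaks came to 38.1% with the stage 9 score limit, 23.8% with the stage 10.5 limit and 18.2% with H3K4me1 alone. Kept peaks came to 50.1% with 50% covered, 79.0% and 66.4% with the limits in that order, and 56.4% beyond 5000 bp. Stage 9 H3K27ac on lost peaks came to 31.6%, 14.3% and 12.7% (both limits, H3K4me1 alone). The median score was 10 with 50% covered, 29 and 10 with the limits. The median width was 1370 bp, 1976 bp and 1298 bp, and the median GC content 39.2% and 38.7% with the limits. Beyond 5000 bp 80.8% were intergenic.

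Near lost peaks 20.4% of genes were lower and 23.2% higher with TMM, and 21.2% and 22.04% with median-of-ratios factors; 24.2% were higher for genes with lost and no kept peak. With 1 library a group, and no ChIP depth in the sources used here, whether the low-scoring lost peaks fell just below the calling threshold at stage 10.5 was not tested.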
